A study of Mus musculus with 12 samples.

Results

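Expression of 42 germline and meiosis genes was examined in 12 mouse induced pluripotent stem (iPS) cell clones, 6 Aid+/+ and 6 Aid-/-. The genes were named by their known roles in germ cells and in meiosis, not by their signals on these arrays, and many of them are known to carry methylated CpG-rich promoters in somatic cells. Probes were assigned through the transcript accession in the array files. Of the 42 genes, 41 had at least 1 probe, 50 probes in all, among 20660 named genes and 55681 non-control probes. Piwil4, a PIWI protein of the fetal male germ line, had no probe here.

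The study asked whether Aid-/- clones differ from Aid+/+ clones. Wild-type clones formed series 967B (967B2, 967B4 and 967B6) and series 979B (979B1, 979B3 and 979B4). Aid-/- clones formed series 979F (979F1, 979F2 and 979F3) and a series of 981E1, 981E4 and 981E5, called here the slide-3 Aid-/- clones. All 12 were male, of a mixed C57BL6, DBA and 129S4 strain, carried a Nanog-GFP reporter, and were grown at passage 6 on gelatin with LIF and puromycin. They had been made from embryonic fibroblasts with retroviral Oct3/4, Sox2, Klf4 and c-Myc. Each clone comes from 1 colony and was hybridised to 1 array, so that the spread described here is a spread between clones, and clones of 1 series (the same number and letter) may be more alike than clones of different series. Series 967B was on slide 1, 979F on slide 2, and 979B and the other Aid-/- series together on slide 3. Only slide 3 held both genotypes, and slide cannot be told apart from series elsewhere.

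Germ cell development runs through primordial germ cells, in which DNA methylation is erased across the genome, to meiosis, in which homologous chromosomes pair, are joined by the synaptonemal complex and exchange DNA. In male germ cells the piRNA pathway, made up of PIWI proteins, small RNAs and Tudor domain proteins, silences transposons. In somatic cells many of these genes are kept off by promoter methylation and by repressors that include the E2F6 and MGA/MAX complexes. Pluripotent stem cells express a number of them without entering meiosis.

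Levels are log2 signals relative to the 75th percentile of the same array, so that 0 is the signal of the probe at that percentile. They are compared between clones for 1 probe and never between probes. A probe was counted as well above background on an array where Agilent's software marked it so. Across the 12 arrays 31676 to 33643 probes were well above background, the 75th percentile lay at a processed intensity of 418 to 509, and no spot was saturated. The weakest probes marked in this way lay between -5.20 and -4.73, and lower levels carry little information. The 11 pluripotency markers looked at were all well above background on every array. Of 10 fibroblast markers, 5 passed that mark on every array, 4 on some and 1, Lum, on none. Their summed level adds the signals of the 10 probes after undoing the log2, so that the brightest probes weigh most. It was 2.03 to 17.5 in Aid+/+ clones and 13.5 to 33.6 in Aid-/- clones. Clone 967B4 had the lowest sum and 979F3 the highest. At 9 of the 10 fibroblast probes the level was higher in Aid-/- clones at an unadjusted p under 0.05 in limma, with none past an adjusted p of 0.05 (smallest 0.163). Markers of spermatids and of oocytes were mostly dim. Detected on every array were 2 of 8 spermatid genes and 2 of 7 oocyte genes. In these bulk samples fewer cells of a type and less RNA per cell cannot be told apart.

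The starts of the genes were looked at first, since promoter CpGs are the sites of the methylation for which these genes are known. RefSeq promoter windows of GRCm38.p6, from 250 bases before to 50 bases after each start and read along the gene's strand, were matched for 36 of the 42 genes, 43 windows in all. The median member window held 19 CpG dinucleotides, against 7 over all 32851 windows of the table. The ratio of observed to expected CpG had a median of 0.70 for the members and 0.38 for all windows, and was above 0.6 in 67.4% of member windows and 35.8% of all. Members well above background on all 12 arrays had a median ratio of 0.71 over 32 windows. Members detected on some arrays had 0.53 over 5 windows, and those detected on none 0.55 over 4 windows from 2 genes. The number of CpGs in the 300 bases ran from 48 for Tdrd5 to 0 for Nanos2 and for 1 of the windows of Piwil4.

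**Figure D1:**
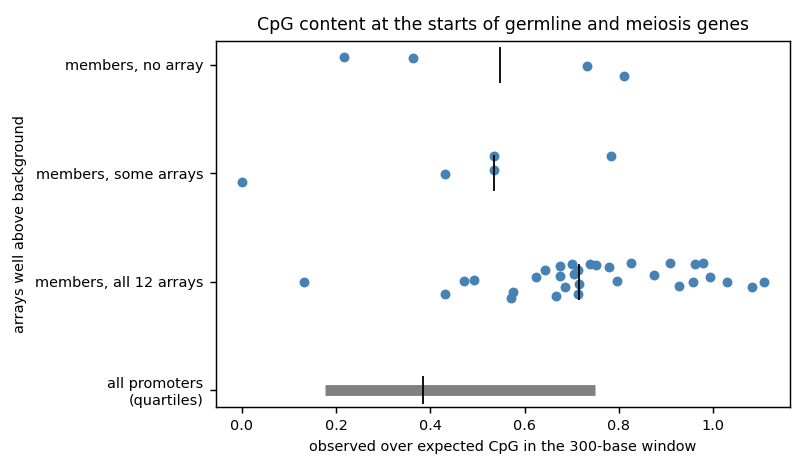
Observed over expected CpG in the 300-base RefSeq window of each start (x axis), for all promoters (grey bar from the lower to the upper quartile) and for member windows by the number of arrays on which the gene was well above background (1 point a window, vertical strokes are medians, points are spread vertically for legibility). The members detected on all 12 arrays centre on 0.71 and the bar of all promoters on 0.38.

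Windows of 5 genes are shown, with each CpG in capitals, 5′ to 3′ along the gene. Tdrd5 (chr1:156303299-156303598, minus strand) and Mael (chr1:166238695-166238994, minus strand) are the genes whose levels did not overlap between the genotypes. Taf7l (chrX:134476441-134476740, minus strand) and Tuba3a (chr6:125286032-125286331, minus strand) differed between clone series. Sycp2 (chr2:178407609-178407908, minus strand) was well above background on no array.
Tdrd5: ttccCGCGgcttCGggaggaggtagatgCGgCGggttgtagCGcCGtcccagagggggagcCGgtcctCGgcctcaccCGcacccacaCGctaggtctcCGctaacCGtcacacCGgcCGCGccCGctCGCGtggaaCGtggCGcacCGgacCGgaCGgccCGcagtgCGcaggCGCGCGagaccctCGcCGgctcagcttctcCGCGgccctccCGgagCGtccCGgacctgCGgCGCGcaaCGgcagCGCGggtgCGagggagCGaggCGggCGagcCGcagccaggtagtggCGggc
Mael: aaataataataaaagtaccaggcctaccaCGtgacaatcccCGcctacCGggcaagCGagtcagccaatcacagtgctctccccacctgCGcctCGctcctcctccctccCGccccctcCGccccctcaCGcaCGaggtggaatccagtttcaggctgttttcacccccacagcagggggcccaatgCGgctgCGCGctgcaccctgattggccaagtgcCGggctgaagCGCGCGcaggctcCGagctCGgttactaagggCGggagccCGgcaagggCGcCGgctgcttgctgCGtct
Taf7l: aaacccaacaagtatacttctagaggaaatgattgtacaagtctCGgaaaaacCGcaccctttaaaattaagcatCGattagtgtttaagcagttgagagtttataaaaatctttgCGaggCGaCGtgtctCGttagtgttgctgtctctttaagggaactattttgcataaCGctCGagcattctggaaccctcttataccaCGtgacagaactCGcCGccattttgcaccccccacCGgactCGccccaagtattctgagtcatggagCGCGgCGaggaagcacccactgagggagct
Tuba3a: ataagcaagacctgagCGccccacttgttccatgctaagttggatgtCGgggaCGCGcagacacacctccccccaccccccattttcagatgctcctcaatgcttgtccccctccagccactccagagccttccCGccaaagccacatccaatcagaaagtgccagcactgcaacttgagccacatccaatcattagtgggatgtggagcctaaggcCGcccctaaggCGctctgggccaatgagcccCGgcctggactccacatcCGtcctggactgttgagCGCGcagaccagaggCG
Sycp2: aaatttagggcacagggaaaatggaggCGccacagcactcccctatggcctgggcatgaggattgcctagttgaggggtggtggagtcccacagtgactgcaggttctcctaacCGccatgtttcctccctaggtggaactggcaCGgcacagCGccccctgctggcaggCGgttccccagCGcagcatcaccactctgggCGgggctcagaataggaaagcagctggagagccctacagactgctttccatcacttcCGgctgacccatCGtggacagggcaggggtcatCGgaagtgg
The Tdrd5 window, with 48 CpGs, has an observed over expected ratio of 1.11. Mael has 24 CpGs (ratio 0.78), Taf7l 17 (1.03), Tuba3a 12 (0.47) and Sycp2 10 (0.36).

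A pair of short motifs was searched on both strands. TCCCGC is bound by E2F6, and CACGTG, the E-box, by MGA/MAX. They can overlap by at most 1 letter, and each contains a CpG, so that CpG-rich windows are more likely to hold them. TCCCGC was found in 18 of 43 member windows (41.9%, against 20.0% of all windows). By gene it was in 16 of 36 members (44.4%, against 22.05% of all genes). CACGTG was found in 19 member windows (44.2%, against 7.15%), in 15 genes (41.7%, against 8.09% of all genes). Among windows with a CpG ratio above 0.6, TCCCGC was in 51.7% of 29 member windows and 43.1% of all 11756, and CACGTG in 58.6% and 11.3%. The genes that hold both motifs were 7 of 36 (19.4%, against 2.32% of all genes), among them Mael, Ddx4, Sycp1, Sycp3 and Hormad1. Among genes with a CpG ratio above 0.6 the shares with both were 29.2% of members and 5.19% of all. The Tdrd5 and Tuba3a windows hold TCCCGC, Taf7l holds CACGTG, and the Sycp2 window holds neither. A match is a description of the letters only.

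The name "silenced" did not describe most of these genes in the iPS cells. Of the 41 genes with a probe, 32 (78.0%) stood well above background on all 12 arrays, 5 on some and 4 on none. Over all 20660 named genes the shares were 65.4%, 14.7% and 19.9%. The 4 genes not detected on any array were Spo11, the nuclease that makes the meiotic DNA breaks, Sycp2, an axis protein of the synaptonemal complex, and the Tudor proteins Tdrd1 and Tdrd6. Those detected on some arrays were Asz1, Nanos2, Piwil1, Tdrd9 and Hormad2.  Hormad2 was missed in 967B4 alone, Piwil1 and Tdrd9 were detected on 2 Aid+/+ arrays each, Nanos2 on 1 Aid+/+ array and Asz1 on 1 Aid-/- array. For Tex15, Tex11 and Brdt 1 probe was well above background on all arrays, and another on 0, 3 and 9 arrays respectively.

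Between the genotypes 1 of the 50 member probes passed an adjusted p of 0.05 in limma, a probe of Tdrd5, which was lower in Aid-/- clones. Over all probes 0.0611% passed, 0.0305% lower in Aid-/-. At an unadjusted p under 0.05 there were 9 member probes (18%), 7 lower and 2 higher, against 13.6% of all probes. The levels of the genotypes did not overlap at 3 member probes, both Tdrd5 probes and Mael, lower in Aid-/- at each. The background share of probes with no overlap was 2.17%, and 1.48% with the Aid-/- clones lower. Over the 38 member probes well above background on all arrays the median log2 difference, Aid-/- minus Aid+/+, was -0.18, with 29 probes below 0 and 9 above. Over all 28321 probes detected on all arrays the median was -0.06, with 60.2% below 0, against 76.3% of the member probes.

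**Figure D2:**
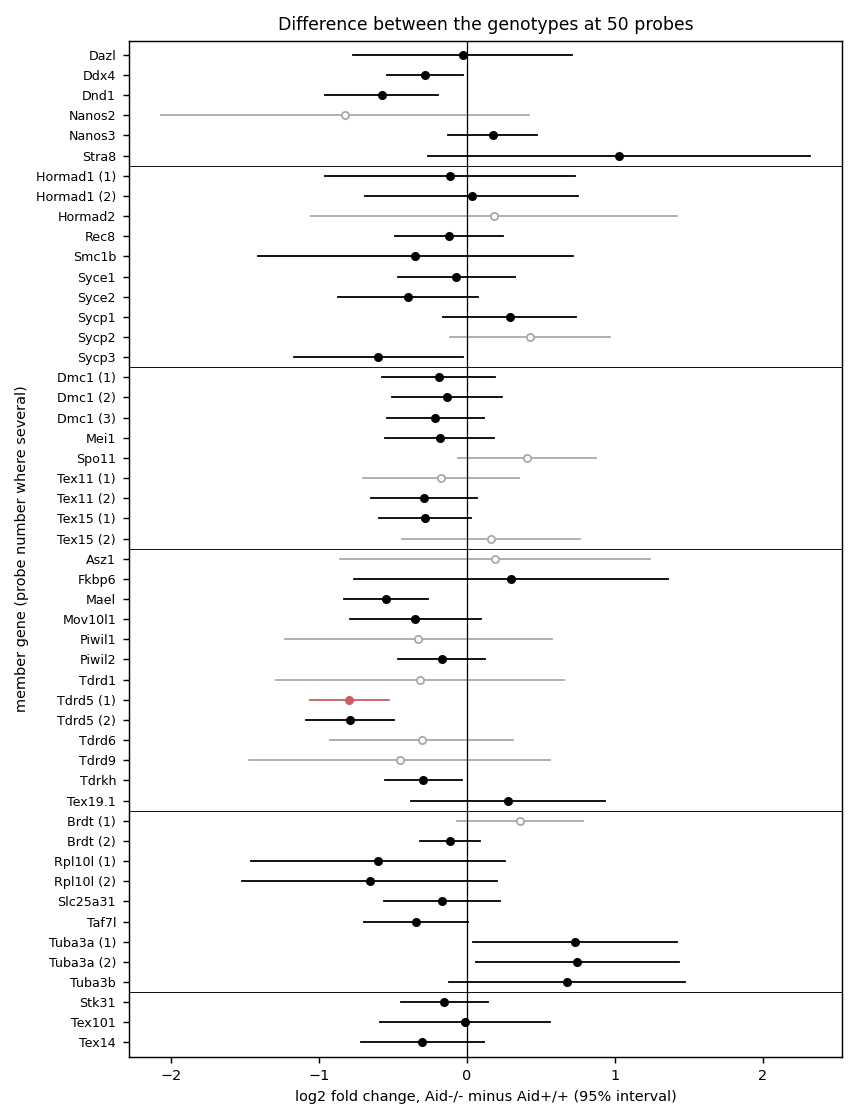
Log2 fold change, Aid-/- minus Aid+/+ (x axis), with its 95% limma interval for the 50 member probes, grouped by role from top to bottom (RNA regulators and entry into meiosis, chromosome axis and synaptonemal complex, recombination, piRNA pathway, paralogues and transcription, others). Filled points are probes well above background on all 12 arrays, grey open points those that were not, and the red point is the Tdrd5 probe at an adjusted p of 0.0491.

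Tdrd5 is a Tudor domain protein needed in male germ cells for the silencing of transposons and for the formation of spermatids. At the first of its probes (A_55_P1965160) the levels were -1.14, -0.73 and -1.19 in 967B2, 967B4 and 967B6 and -0.65, -0.66 and -0.68 in the 979B clones. They were -1.48, -1.78 and -1.79 in the 979F clones and -1.51, -1.60 and -1.68 in 981E1, 981E4 and 981E5. Every Aid-/- clone lay below every Aid+/+ clone, and the 979B clones were the highest. The means were -0.84 ± 0.25 (SD, n = 6) and -1.64 ± 0.13, a difference of -0.80 (SE 0.12, limma adjusted p = 0.0491), or a level 1.74-fold higher in Aid+/+ clones. The second probe (A_55_P2142575) gave -0.79 (SE 0.14, limma adjusted p = 0.0548), with levels of -0.65 to 0.06 in Aid+/+ clones and -1.20 to -0.84 in Aid-/- clones. The first probe did not pass when 967B4, 979B1, 979B3, 979B4 or any of the 6 Aid-/- clones was left out, with adjusted p of 0.0576 to 0.132, and its difference was -0.83 to -0.76 in those fits. With slide as a random block its adjusted p was 0.0506, and 0.0999 with a random block for the series. Between the 2 series on slide 3 the Tdrd5 probes differed by -0.93 (SE 0.15, limma adjusted p = 0.0089) and -0.93 (SE 0.16, limma adjusted p = 0.0141). These SE and p-values come from a fit of all 12 clones, which takes its spread from all 4 series. The summed level of the fibroblast markers was 23.4 to 33.6 in 979F clones, 13.5 to 26.8 in the slide-3 Aid-/- clones, 11.7 to 17.5 in 979B clones and 2.03 to 14.0 in 967B clones. Its part in the Tdrd5 difference, and in that of Mael given next, was not tested.

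Mael, a piRNA pathway protein that acts in transposon silencing, ran in the same direction. Its levels were 1.93, 1.65 and 2.32 in the 967B clones, 2.17, 1.95 and 1.86 in the 979B clones, 1.57, 1.12 and 1.55 in the 979F clones and 1.63, 1.48 and 1.26 in the slide-3 Aid-/- clones. The highest Aid-/- clone, 981E1, lay just below the lowest Aid+/+ clone, 967B4. The difference was -0.55 (SE 0.13, limma adjusted p = 0.115) and did not pass. After normexp background correction, in which 517 of all probes passed, Mael passed as well.

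**Figure D3:**
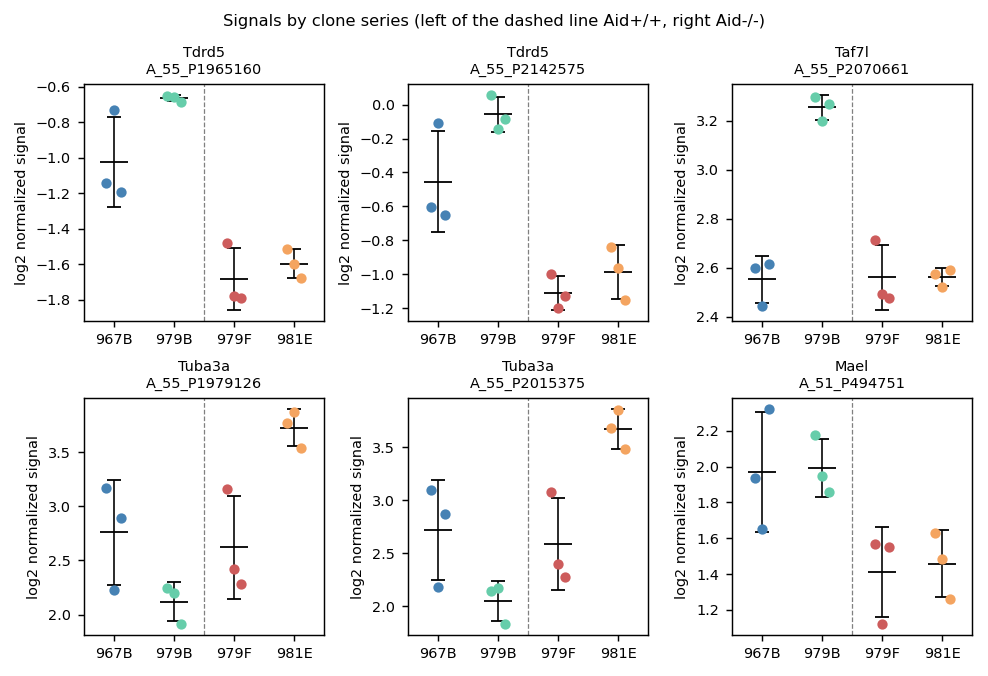
Log2 normalized signal (y axis, relative to the 75th percentile of the array) of 6 member probes in each clone, by series (x axis), with mean and SD of 3 clones. Both Tdrd5 probes and Mael lie lower in every Aid-/- clone than in every Aid+/+ clone, Taf7l stands apart in 979B, and Tuba3a is highest in the slide-3 Aid-/- clones (981E1, 981E4 and 981E5).

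Taf7l, a germ cell paralogue of the transcription factor subunit Taf7, and Tuba3a, a testis alpha-tubulin, passed a test among series and not between genotypes. An F test among the 4 series passed at 5 member probes (both Tdrd5 probes, both Tuba3a probes and Taf7l), against 4.16% of all probes, and 19 member probes (38.0%) had an unadjusted p under 0.05, against 21.9%. Taf7l levels were 2.60, 2.44 and 2.61 in 967B clones, 3.30, 3.20 and 3.27 in 979B, 2.71, 2.49 and 2.48 in 979F and 2.58, 2.52 and 2.59 in the slide-3 Aid-/- clones. Only the 979B clones stood apart, and the 967B clones lay among the Aid-/- clones or just below (F test, limma adjusted p = 0.0141). One Tuba3a probe (A_55_P1979126) read 3.17, 2.22 and 2.89 in 967B, 2.25, 2.20 and 1.91 in 979B, 3.16, 2.42 and 2.28 in 979F and 3.76, 3.87 and 3.54 in the slide-3 Aid-/- clones (F test, limma adjusted p = 0.0399). The other (A_55_P2015375) followed it, at 3.48 to 3.86 in the slide-3 Aid-/- clones and 1.83 to 2.17 in 979B (adjusted p = 0.0351). All 3 of them lay above all other clones at both probes. Tuba3a is nearly identical to its paralogue Tuba3b, whose probe ran alike (0.55 to 1.51 in the slide-3 Aid-/- clones and -0.61 to -0.29 in 979B, adjusted p = 0.129), and the probes may read both genes. Rpl10l has the same limit toward Rpl10.

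Series 979F and 979B share a number and differ in genotype. Between them 3 of the 50 member probes passed, against 0.614% of all probes, and all 3 were lower in 979F (0.366% of all probes lower, 0.248% higher). They were the Tdrd5 probes, at -1.02 (limma adjusted p = 0.0198) and -1.05 (limma adjusted p = 0.0257), and Taf7l, at -0.69 (limma adjusted p = 0.0281). On slide 3, where the Aid-/- clones were compared with 979B, 5 member probes passed, 3 lower and 2 higher, against 4.13% of all probes, 1.85% lower and 2.28% higher. Besides Tdrd5 these were Taf7l, at -0.69 (limma adjusted p = 0.0089), and Tuba3a, at 1.60 and 1.63 (limma adjusted p = 0.0141 and 0.0116). Both comparisons share the 979B clones, so that they are not independent. The median difference over the 38 detected member probes was -0.35 for 979F minus 979B and 0.02 for the Aid-/- clones minus 979B on slide 3. Of the 50 member probes 0 passed a test of whether the genotype effect differed between 979F minus 979B and the slide-3 Aid-/- clones minus 967B (limma, adjusted p under 0.05, background 0.106%, 0.0485% higher and 0.0575% lower), with 10 (20.0%) at an unadjusted p under 0.05, against 9.85% of all probes. Taf7l passed that test after normexp correction.

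Clone by clone, 979F2 and 979F3 held lower levels of most of these genes. Against the median clone of each probe, 37 of the 38 detected member probes were lower in 979F2 (median -0.45) and 35 in 979F3 (median -0.37). Over all probes detected on all arrays the medians of these clones were -0.01 and -0.02. Clone 979F1, of the same series, was lower at 27 of 38 with a median of -0.11. In 979F2 17 of the 38 member probes (44.7%) had their lowest level of any clone, against 9.31% of all probes. At the other side 967B6 was lower than the median clone at 2 of 38 and held the highest level of 8 (21.1%, against 8.26% of all probes). Shares of all probes below the median clone were not counted. Fibroblast marker sums were 30.4 in 979F2 and 33.6 in 979F3, the highest of the 12, and 26.8 in 981E4, whose member median was 0.12. Their part in the low levels of the 979F clones was not tested.

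**Figure D4:**
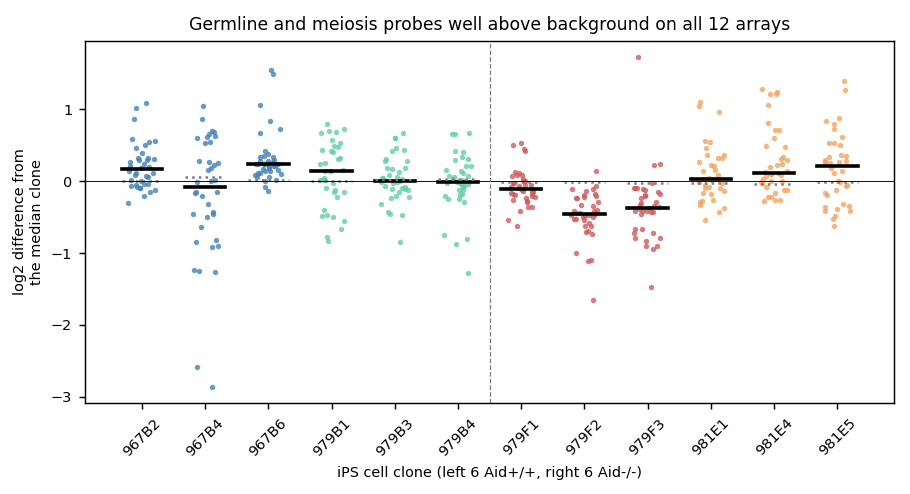
Log2 difference from the median clone of the same probe (y axis) for the 38 member probes well above background on all 12 arrays, in each clone (x axis), coloured by series (blue 967B, green 979B, red 979F, orange 981E1, 981E4 and 981E5). Thick lines are the medians of the member probes, dotted lines those of all probes. The medians of 979F2 and 979F3 are -0.45 and -0.37, and 967B4 has the widest spread.

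The genes of RNA regulation and entry into meiosis varied most through Stra8, the retinoic acid target that promotes entry into meiosis. Its levels were 3.77, 0.63 and 4.27 in 967B, 2.39, 2.79 and 1.94 in 979B, 3.65, 2.73 and 4.94 in 979F and 3.76, 4.28 and 2.60 in the slide-3 Aid-/- clones. Stra8 had the widest range of the member probes, 4.31, and 967B4 was the lowest clone. The genotypes differed by 1.03 (SE 0.59, limma adjusted p = 0.491). Dazl, an RNA-binding protein that licenses germ cells for their fate, was at -1.93 and -1.87 in 979F2 and 979F3, 0.36 in 981E4 and -1.05 to -0.46 in the other 9 clones. Dnd1, which protects germ cell transcripts, was at 0.81 to 1.99 (median 1.38) in Aid+/+ clones and 0.53 to 1.01 (median 0.84) in Aid-/- clones, a difference of -0.58 (SE 0.18, limma adjusted p = 0.184). Ddx4 (Vasa), a germ cell RNA helicase, and Nanos3, which keeps primordial germ cells alive, were among the least variable members. Ddx4 was at 1.24 to 1.80 (median 1.57) and 1.10 to 1.65 (median 1.23), and Nanos3 at 0.99 to 1.70 (median 1.27) and 1.27 to 1.71 (median 1.54), in Aid+/+ and Aid-/- clones. Nanos2, of the male germ line, rose above background on 1 array, that of 979B4, at -3.79, and lay between -7.33 and -5.32 elsewhere.

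Of the 9 genes of the chromosome axis and the synaptonemal complex 7 (77.8%) stood above background on all arrays, against 65.4% of all named genes. None passed between the genotypes (smallest limma adjusted p 0.346, for Sycp3). Smc1b, the meiotic cohesin subunit, was at 0.21 and 0.39 in 979F2 and 979F3, at 1.63 in 979F1 and between 1.71 and 3.25 in the other 9 clones. These 2 clones lay more than 1 log2 unit below every other clone. Sycp3, a lateral element protein, was at 0.63 and 0.82 in the same clones, 1.10 in 979F1 and 1.45 to 2.34 in the others. The Hormad1 probe A_51_P497870 was at -2.11 and -1.90 there, -1.81 in 967B4 and 0.28 in 981E5, its highest clone. Hormad1 and Hormad2 coat unpaired chromosome axes. Hormad2 was at -4.83 in 967B4, below background, at -2.64 and -2.86 in 979F2 and 979F3, and between -1.81 and -1.18 in the other 9. In 979F2 7 of the 8 detected probes of this group lay below all 3 979B clones, and in 979F3 5 of 8. Over all 38 detected member probes these counts were 29 in 979F2 and 26 in 979F3. The share over all probes was not counted. The central element genes Syce1 and Syce2, the cohesin Rec8 and the transverse filament gene Sycp1 differed by -0.40 to 0.29 between the genotypes, none passing.

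Recombination genes were detected except Spo11. The recombinase Dmc1 had 3 probes, which ran alike, with the highest level in 967B4 and the lowest in 979F2 at each, and differed between genotypes by -0.21 to -0.14. Tex15 and Tex11, which act in repair and crossing-over, and Mei1, which is needed for the meiotic DNA breaks, differed by -0.29 to -0.19 at their detected probes. All 6 detected probes of this group were lower in Aid-/- (60.2% of all detected probes were), none with an unadjusted p under 0.05. On slide 3 the differences of the Dmc1 probes were 0.23, 0.32 and 0.05 and that of Tex15 was 0.08, with -0.04 for Mei1 and -0.02 for Tex11, so that the direction over all 12 clones did not hold there. Of all 38 detected member probes 12, among them the 3 of Dmc1, were lower over all clones and higher on slide 3. Some of these slide-3 differences were close to 0 (0.008 for Slc25a31 and 0.004 for Tex14). The share over all probes was not counted.

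**Figure D5:**
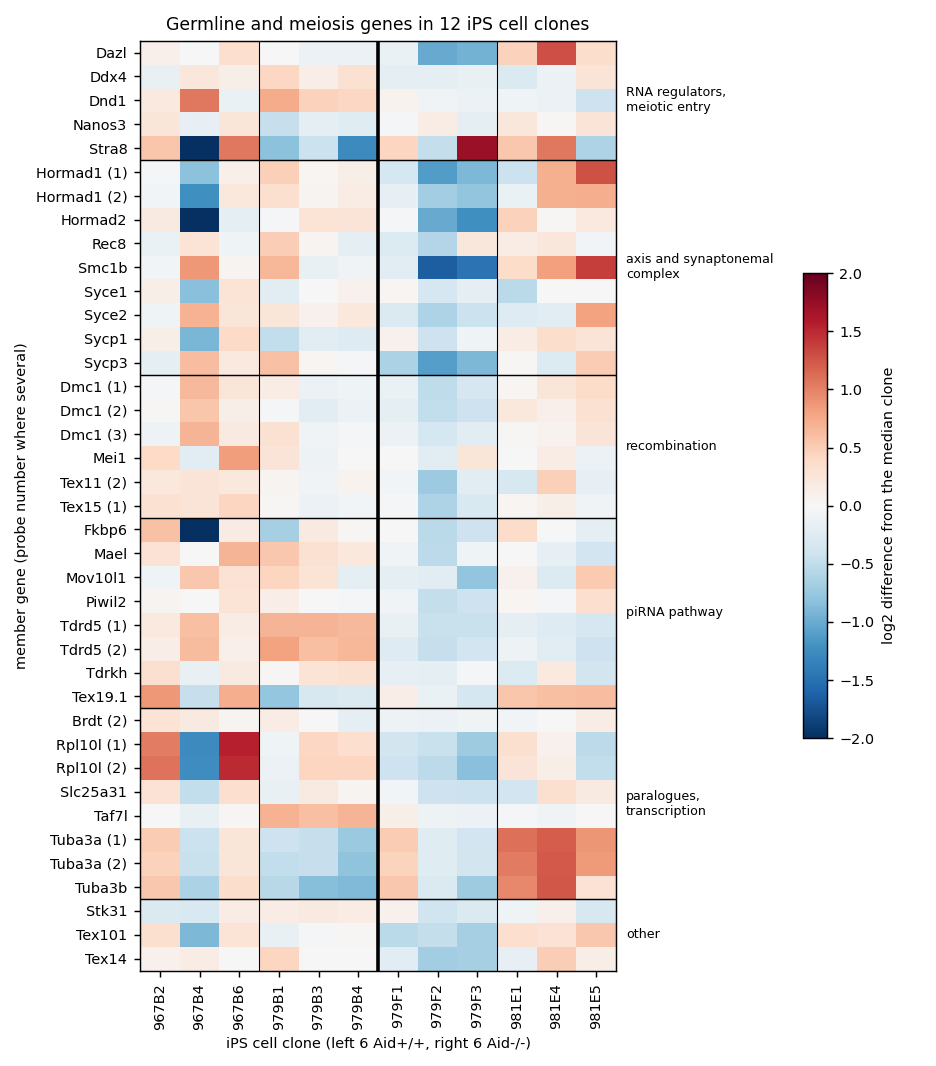
Log2 difference from the median clone of the same probe (colour, ending at 2 in either direction) for 39 member probes well above background on at least 11 arrays, by role, in the 12 clones. Thin lines part the series, and the thick line the genotypes. The blue columns of 979F2 and 979F3, the mixed column of 967B4 and the 979B columns of Taf7l stand out.

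In the piRNA pathway 7 of 12 genes with a probe (58.3%) stood above background on all arrays, against 65.4% of all named genes. Of its 13 probes 4 were lower in Aid-/- at an unadjusted p under 0.05 in limma. They were the 2 probes of Tdrd5 and those of Mael and Tdrkh. Of all probes 13.6% had such a p in either direction. Tdrkh, a mitochondrial Tudor protein that takes part in piRNA trimming, was at -3.57 to -3.10 (median -3.19) in Aid+/+ clones and -3.79 to -3.23 (median -3.60) in Aid-/- clones, a difference of -0.29 (SE 0.12, limma adjusted p = 0.304). Piwil2 (Mili), a PIWI protein, was at -1.17 to -0.87 (median -1.10) and -1.60 to -0.80 (median -1.18). Fkbp6, a cochaperone of the pathway, was at -3.79 in 967B4 and between -1.60 and -0.34 in the other 11 clones. Without 967B4 its difference turned from 0.30 to -0.19, and that of Hormad2 from 0.18 to -0.37. Tdrd9, an RNA helicase, was well above background on 2 arrays and lay between -7.00 and -4.01. Asz1, a mitochondrial protein of the pathway, was at -4.08 in 981E4, its only array well above background, and between -7.24 and -6.05 elsewhere. Tex19.1 and the RNA helicase Mov10l1 differed by 0.28 and -0.35, with adjusted p of 0.75 and 0.50.

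Among the germ cell paralogues, Rpl10l, which stands in for Rpl10 when the X chromosome is silent in meiosis, read 3.29, 1.00 and 3.82 in 967B, 2.18, 2.69 and 2.61 in 979B, 1.91, 1.83 and 1.55 in 979F and 2.59, 2.36 and 1.74 in the slide-3 Aid-/- clones (probe A_55_P2027995). Clone 967B4 was the lowest and 967B6 the highest. A probe of Brdt, the testis BET protein, was the least variable of the detected member probes (A_55_P2124831, SD 0.14 over the clones). It was at -0.78 to -0.31 (median -0.48) in Aid+/+ clones and -0.70 to -0.44 (median -0.66) in Aid-/- clones, a difference of -0.12. The other Brdt probe, A_52_P70787, was weaker, with an SD of 0.38 and a difference of 0.36 (limma adjusted p = 0.457). Slc25a31, the germ cell ATP/ADP carrier, differed by -0.17 (SE 0.18). Of the others, Stk31 was at -1.12 to -0.63 (median -0.66) and -1.21 to -0.70 (median -0.99), and Tex14, of germ cell bridges, and Tex101, of the germ cell surface, differed by -0.30 and -0.01.

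Other genes of the same pathways were taken from lists by function. Of 24 probes of 19 other meiosis genes, 0 passed between the genotypes in limma. An unadjusted p under 0.05 was found at 9 (13.6% of all probes had one), all lower in Aid-/-. The median difference was -0.31 over the 24 probes. Over the 18 detected on all arrays it was -0.36, against -0.06 over all detected probes. Of 12 probes of 11 other piRNA pathway genes 0 passed and 2 had an unadjusted p under 0.05, with a median of -0.07. The 16 repressors of germline genes, among them E2f6, Mga, Max, Setdb1 and the DNA methyltransferases, were each detected on all arrays. Of their 21 probes 0 passed, and 5 had an unadjusted p under 0.05, 4 of them lower. Of 16 probes of primordial germ cell genes 0 passed and 1 had an unadjusted p under 0.05.

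Over all probes clones 967B4 and 981E5 stood apart from the rest. In 967B4 10 of the 38 detected member probes (26.3%) had their lowest level, against 11.7% of all probes. More than 2-fold away from the median of the clones in 967B4 were 6 (15.8%, against 6.15% of all probes). In 981E5 it was 2 member probes (5.26%), against 5.90% of all probes, so that its members did not stand apart in this way. More member probes than in 981E5 were over 2-fold from the median in 981E4, with 5 (13.2%, against 1.43% of all probes). The same held for 979F2, with 4 (10.5%, against 1.55%), and 967B6, with 3 (7.89%, against 1.56%). These are counts of probes, not of genes. Those of 981E4 include both Tuba3a probes and the Tuba3b probe, and those of 967B4 and 967B6 both Rpl10l probes. Those of 979F2 are of different genes. Over the 12 clones the 38 member probes also varied more than all detected probes. Their median SD was 0.39 (quartiles 0.30 and 0.60), against 0.26 (quartiles 0.18 and 0.38). A larger share over 2-fold is therefore not particular to a clone. Without 967B4 and 981E5, a choice made after seeing the data, 0 member probes passed between the genotypes and Tdrd5 differed by -0.77 (limma adjusted p = 0.0795). Among the series 10 member probes then passed, 6 between 979F and 979B and 8 on slide 3, while the shares of all probes rose to 8.77%, 4.64% and 6.37%.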

How the data were processed

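Expression was measured in 12 iPS cell clones on 1-colour Agilent arrays, 1 array per clone. The authors deposited a table of spots per array made with Feature Extraction 10.7.3.1, of which the processed intensity (corrected for background by the authors' software, not scaled between arrays) was used. The authors also deposited log2 values scaled to the 75th percentile, used as an alternative, which followed the log2 intensities with a Pearson r of 1. Control and outlier spots were left out and the intensities of replicate spots were averaged. The log2 of each mean was then taken, and each array was set to 0 at its 75th percentile. Names came from accessions through RefSeq GRCm38.p6, with 27235 of 28685 matched. The array design build differs, so only the promoter windows carry coordinates.

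All 55681 probes were fitted in limma 3.58.1 (R 4.3.3) with Benjamini-Hochberg adjustment, 6 clones against 6 with no covariate, and with a mean per series for the F test and contrasts. In simulated data for the genotype comparison (55580 probes) 50 of 100 changes of 1 log2 unit and 79 of 100 of 2 were recovered. In them 3 unchanged probes were called. The simulated clones were drawn independently, with no effect of series or slide. These counts therefore do not cover clones that are alike within a series. Counts were made in Python 3.11.15 with pandas 2.3.3, numpy 2.4.6 and scipy 1.17.1, and plots with matplotlib 3.10.9. The precision is limited by the number of arrays. P-values measure the spread between clones of unknown relation within a series. Alternatives covered background correction, normalization, a filter on dim probes, the test, slide and series blocks, and each clone left out.

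Members and lists were chosen with earlier results of these data known. Given clone by clone, or by lowest, median and highest level, are probes past an adjusted p of 0.05 in any of the 5 tests, the 8 with the widest range and the 6 with the smallest SD. Mael, Dnd1, Dazl, Sycp3, Hormad1 and Tuba3b were added after their values were seen. The check of the disruption itself is not reported here.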

Additional observations from a re-analysis of the deposited data

Results flagged for a closer look

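Within a genotype of 6 clones, a clone was singled out where its gap to the nearest other clone as a share of the whole range exceeded Dixon's critical value. This held for 8 of the 86 groups of values examined. The nominal rate by chance is about 5%, or 4.3 groups. That rate does not hold for a group detected only through its highest clone. Asz1 in Aid-/- clones is such a group, with 981E4 alone well above background. The number of groups is therefore not a test against chance.

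Clone 967B4 was the lowest Aid+/+ clone for Fkbp6 (-3.79, the others -1.60 to -0.34), Hormad1 at probe A_55_P1974869 (-0.85, the others 0.32 to 0.71) and Hormad2 (-4.83, below background, the others -1.81 to -1.35). Clone 981E5 was the highest Aid-/- clone for Ddx4 (1.65, the others 1.10 to 1.27) and Syce2 (5.70, the others 4.28 to 4.68). Syce2 lies on chromosome 8, where 909 detected probes had a median difference of 0.34 from the median clone in 981E5 and of -0.05 to 0.03 in the other 11 clones. Asz1 was highest in 981E4 among Aid-/- clones (-4.08, the others -7.24 to -6.89). The weak Tex11 probe A_52_P384690 was highest in 967B2 among Aid+/+ clones (-4.01, the others -5.08 to -4.68). Tex14 was highest in 979B1 among Aid+/+ clones (1.98, the others 1.55 to 1.71).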

How the results depend on the processing

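The member count between the genotypes was 1 in the reported fit, in which 0.0611% of all probes passed. With normexp correction it became 3 (0.929% of all probes). It was 2 with quantile normalization (0.192%) and 2 with only probes well above background on at least 1 array (0.278% of those probes). Trended and robust limma gave 2 (0.517%), and so did the methods' t-test after Benjamini-Hochberg adjustment (0.675%). With slide as a fixed block, which here rests on slide 3 alone, the count was 5 (4.13%). It was 0 with the percentile over detected probes (0.0790%) and with slide (0.0269%) or series (0.0126%) as a random block. The count was also 0 when a fold over 2 was asked for, and 0 without 967B4 and 981E5 (0.0880%). With 1 clone left out it was 0 to 2 (0.0108% to 0.120%). The count among series, 5, became 9 with normexp, 10 without 967B4 and 981E5, and 1 to 10 with 1 clone left out (with 7.29%, 8.77% and, without 967B4, 8.64% of all probes passing, against 4.16%; 10 without 967B4, 1 without 979B1 or 979B3). The count between 979F and 979B, 3, became 6 without both clones (4.64% of all probes, against 0.614%) and 0 to 3 with 1 clone left out. On slide 3, 5 became 8 without both clones (6.37% of all probes, against 4.13%) and 4 to 9 with 1 left out (9 without 967B4, with 7.58%). The test of a difference between effects gave 1 with normexp in place of 0. Among the probes given clone by clone, the direction of the genotype difference turned for Asz1 (-0.018 with normexp, and -0.30 to 0.33 with 1 clone left out, the lowest without 981E4), Brdt (0.037), Piwil2 (0.089) and Smc1b (0.71) with slide as a fixed block, and Fkbp6 (-0.19 to 0.50 with 1 clone left out, the lowest without 967B4, and -0.18 without both clones) and Hormad2 (-0.37 to 0.38, the lowest without 967B4, and -0.46). On slide 3, which the fixed block rests on, 9 further detected member probes turned from lower to higher, of Dazl, Dmc1 (3 probes), Hormad1, Slc25a31, Tex101, Tex14 and Tex15. The matching count over all probes was not made. Tdrd5 was lower in Aid-/- under each alternative run. The causes were not tested. The authors' log2 values moved none of the 5 counts. No paired analysis was possible because no clone has a counterpart of its own in the other genotype. The last digit of a name is a colony number, and the number before the letter is shared between genotypes by 979B and 979F alone, which were compared as series. Signal near background limits Spo11, Sycp2, Tdrd1 and Tdrd6.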
